A study of Sus scrofa with 24 samples.

Results

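The genes described here are 10 genes of actin filament turnover in the hippocampus of newborn piglets, out of 38882 genes in the counts: CFL1, CFL2, COTL1, LIMK1, LIMK2, PDXP, SSH1, SSH2, PFN1 and PFN2. PDXP and COTL1 were taken because their RNA was higher in small piglets in these same libraries, so their differences by size, and any count of calls that holds them, follow from that choice and are given as a description. The other 8 were taken for their role around cofilin and not by their levels, though earlier results of these data were known at that choice. The RNA came from 24 piglets killed at 14 days, 6 in each of 4 groups. The small for gestational age (SGA) and appropriate for gestational age (AGA) piglets were of 1 commercial cross (PIC Camborough dams, PIC 359 sires), and full term. They were taken from the sow in their first days and raised on a control formula (CON), with its fat as triglyceride oils, or on a hydrolyzed fat formula (HF), with free fatty acids, monoacylglycerol palmitate and lecithin in place of part of the oil. Every SGA piglet was paired with a sex-matched AGA littermate given the same formula, which made 12 litters, 6 on each diet. Replicates 1 to 3 of each group belonged to the first cohort and replicates 4 to 6 to the second. The groups therefore differ in birth weight by natural variation within a litter, and diet differs only between litters.

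Actin filaments grow and shrink at their ends, and in neurons this turnover shapes growth cones and the dendritic spines that carry most excitatory synapses of the hippocampus. Cofilin (CFL1, and its muscle isoform CFL2) cuts old filaments and frees monomers. LIM kinases (LIMK1, LIMK2) switch cofilin off by phosphorylation, and slingshot phosphatases (SSH1, SSH2) and chronophin (PDXP) switch it on again. Profilins (PFN1, and PFN2, which is enriched in brain) return monomers to growing ends, and COTL1, a small protein related to cofilin, binds filaments and also 5-lipoxygenase. PDXP has a further known role in vitamin B6 metabolism, where it removes phosphate from pyridoxal phosphate. RNA levels do not show the phosphorylation of cofilin.

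Total counts on genes ranged from 6017336 to 9284355 per library, and 3 counts corresponded to 0.323 to 0.499 CPM (counts scaled to the library total, adjusted by the TMM method). These floors cover counting error only, since reads carried no molecular identifiers. Summed markers of neurons were lowest in AGA CON replicate 2 (2735 CPM) and AGA HF replicate 4 (3473 CPM), and between 4575 and 7090 CPM in the other 22 libraries. Of 6 neuron markers listed, 4 were matched by symbol and entered this sum. SLC17A7 was its largest part, at 3134 ± 703 CPM in AGA and 3618 ± 502 CPM in SGA piglets (SD, n = 12). Summed oligodendrocyte markers were 10930 to 16550 CPM in SGA CON and 16200 to 20610 CPM in AGA CON piglets, and 10200 to 20120 CPM in SGA HF and 11970 to 22370 CPM in AGA HF piglets. Of 5 markers of hippocampal neurons, NEUROD2 and PROX1 were well detected, CALB1 was near the floor, ZBTB20 was under 1 CPM in all libraries, and NEUROD6 could not be matched by symbol. In whole tissue, fewer cells of a type and less RNA per cell cannot be told apart.

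All members but SSH2 passed the filter of at least 1 CPM in at least 3 libraries. SSH2 had 0 counts in 15 libraries, 1 count in 8 and 2 counts in 1, on a gene model of 1471 bases (chromosome 12, 48414412 to 48468229, Sscrofa10.2), and was not tested. On the scale of CPM per kilobase of exon, CFL1 had by far the highest level, at 3003 ± 444 (SD, n = 24), and 99.93% of the genes tested lay below it in CPM. PFN1 followed at 441 ± 67.8 CPM per kilobase, and COTL1 at 83.1 ± 18.3. LIMK1 (57.7 ± 10.9) and PFN2 (44.4 ± 7.96) came next, and in the order COTL1, LIMK1, PFN2 the ranges of mean ± SD of neighbours overlapped. CFL2 (17.6 ± 2.31), LIMK2 (14.2 ± 2.12) and PDXP (11.9 ± 3.42) overlapped in the same way. SSH1 was the lowest of the 9, at 4.99 ± 0.644 CPM per kilobase. Per length, CFL1 RNA was 174-fold that of CFL2 (SD 32.7, lowest 131 and highest 266 over 24 piglets), PFN1 was 10.4-fold PFN2 (SD 3.04), and LIMK1 was 4.22-fold LIMK2 (SD 1.41). Of the cofilin phosphatases, SSH1 was 0.455-fold PDXP (SD 0.174). CFL1 and PFN1 have processed copies in mammalian genomes, so reads shared with such copies make their levels less certain. Comparing genes per length also takes reads to cover each gene model evenly, which was not tested.

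**Figure D1:**
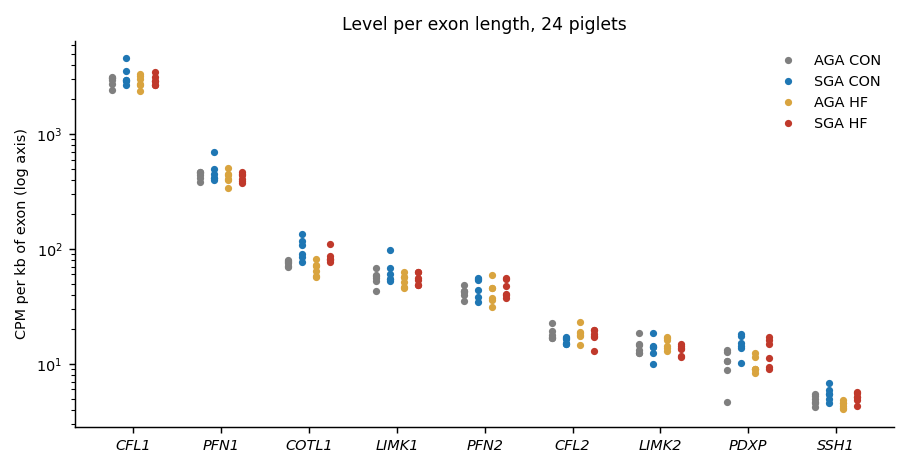
CPM per kilobase of exon (log axis) of the 9 members that passed the filter, 1 point per piglet, coloured by group. The levels run from about 3003 for CFL1 to 4.99 for SSH1, and the 4 groups overlap for every gene.

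PDXP (gene 100623846) is a single-exon gene on the minus strand of chromosome 5, from 7735323 to 7737336 in Sscrofa10.2, and its model holds 2014 bases of exon. In CPM, AGA CON piglets ranged from 9.32 to 26.5 (median 21.4) and SGA CON piglets from 20.5 to 36.6 (median 29.7). AGA HF piglets ranged from 16.6 to 24.9 CPM (median 18.1) and SGA HF piglets from 18.3 to 34.4 CPM (median 26.2). The groups overlapped on both diets. On the HF diet all 3 SGA piglets of cohort 2 (29.9 to 34.4 CPM) were above every AGA piglet, and the 3 of cohort 1 (18.3 to 22.5 CPM) were within the AGA range. The SGA piglet was higher in 11 of 12 litters, which 1.01% of the genes tested reached, and the littermate difference ran from -0.44 to 1.12 on the log2 scale (median 0.39). The largest of these differences was in litter 4, whose AGA piglet was the library with the lowest neuron markers and had 9.32 CPM of PDXP. With litters 4 and 7, which hold the 2 libraries low in neuron markers, both left out, the log2 fold change between SGA and AGA piglets was 0.45, against 0.42 with all litters. Each cohort was also fitted alone, without the 5 surrogate variables (patterns estimated from the data) that the fit to all litters holds. In these fits the log2 fold change was 0.27 in the first and 0.63 in the second cohort. Within groups PDXP varied more than most genes: its SD of 0.39 on the log2 scale was larger than that of 93.3% of the 2243 genes within 0.5 log2 units of its level.

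COTL1 (gene 100621773) lies on an unplaced scaffold of Sscrofa10.2, from 14697 to 61249, with 697 bases of exon and no other gene listed on that sequence. AGA CON piglets had 48.6 to 56.1 CPM (median 53.4), a narrow range, and SGA CON piglets had 54.2 to 94.4 CPM (median 69.4). AGA HF piglets had 40.0 to 57.2 CPM (median 47.3) and SGA HF piglets 54.1 to 77.7 CPM (median 57.4). On each diet the lowest SGA values overlapped the highest AGA values, and the rest of the SGA piglets were above. The SGA littermate was higher in 11 of 12 litters, by -0.05 to 0.83 on the log2 scale (median 0.41), with SGA CON replicate 6 the highest of all 24 libraries. The log2 fold change between SGA and AGA piglets was 0.35 in the first cohort and 0.42 in the second, each fitted alone without surrogate variables. It was 0.39 without litters 4 and 7, and 0.40 without litter 12. COTL1 RNA is known from immune cells, and the summed level of 8 microglial markers was 109 to 264 CPM (median 193) in SGA and 118 to 342 CPM (median 195) in AGA piglets.

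These 2 genes were the first and second in log2 fold change among the genes that were called higher in SGA piglets, had a symbol and were higher in the SGA littermate in at least 10 of 12 litters. Among all genes tested they ranked 514 and 572 from the top. KIAA1671 (0.39) and BHLHE22 (0.35) came next in that order and are not members. At a threshold of 0.4 on the FDR p of edgeR's quasi-likelihood test, with 7 contrasts adjusted together, 0.478% of the genes tested were called between SGA and AGA piglets, and 2 of the 9 members tested were. Both are the 2 chosen for this difference, so nothing is read from that count, and none of the other 7 was called. Without the surrogate variables, the patterns estimated from the data that the fit adjusts for, PDXP was not called (log2 fold change 0.48) and COTL1 was (0.39). PDXP also lost its call without litter 2 or without litter 9, at 0.33 and 0.39. In no member did the SGA and AGA groups of a diet lie wholly apart, as they did in 0.368% of genes on the CON and 0.374% on the HF diet.

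**Figure D2:**
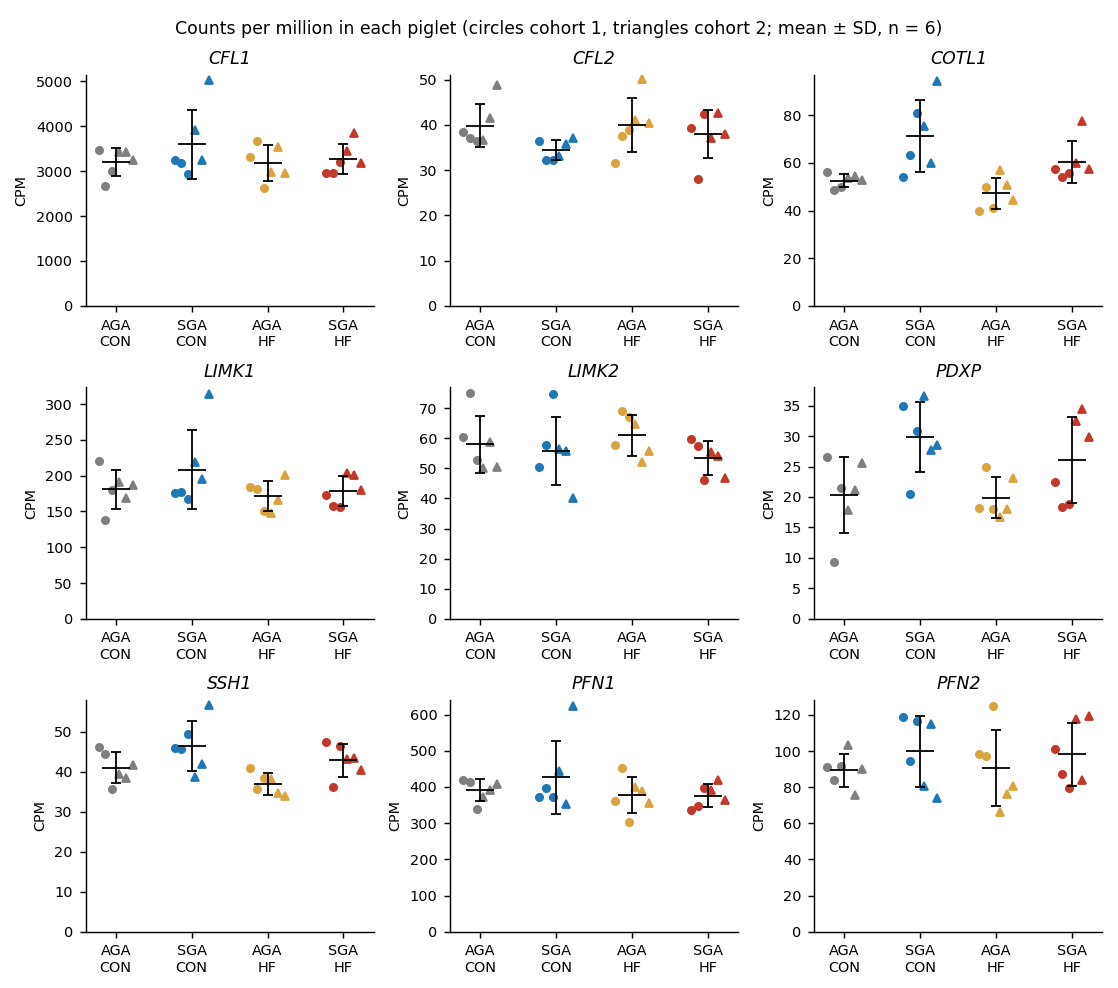
CPM of each member in each piglet by group, with circles for cohort 1 and triangles for cohort 2 and bars for the mean ± SD (n = 6). PDXP and COTL1 sit higher in SGA than in AGA piglets on both diets with overlap, and SGA CON replicate 6 stands above its group for CFL1, LIMK1 and PFN1.

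SSH1, a slingshot phosphatase, was the member closest to PDXP and COTL1 in its difference by size (chromosome 14, 44506881 to 44573822, 8394 bases of exon). AGA CON piglets had 35.8 to 46.3 CPM (median 40.6) and SGA CON piglets 38.7 to 56.8 CPM (median 45.9). On the HF diet the AGA piglets had 33.9 to 41.0 CPM (median 37.0) and the SGA piglets 36.2 to 47.4 CPM (median 43.4). The ranges overlapped on each diet, with most SGA piglets in the upper part. The log2 fold change between SGA and AGA piglets was 0.17 (standard error 0.064, 95% interval 0.03 to 0.30), with an unadjusted p of 0.0163 and an FDR-adjusted p of 0.638 in edgeR's quasi-likelihood test, so SSH1 was not called. An unadjusted p under 0.05 was found for 10.6% of all genes. On the HF diet alone the log2 fold change of SSH1 was 0.24 (95% interval 0.05 to 0.42, unadjusted p = 0.01365, FDR-adjusted p = 0.618 in edgeR). There 1310 of 16326 genes had an unadjusted p under 0.05. On the CON diet it was 0.10 for SSH1 (-0.09 to 0.28). The SGA littermate was higher in 10 of 12 litters, in 6 of 6 on the HF diet and 4 of 6 on the CON diet, and 3.8% of the genes tested reached 10 of 12. With a block for litter replacing sex and the surrogate variables, the log2 fold change of SSH1 was 0.19 (standard error 0.058) and the FDR-adjusted p 0.376, past the threshold, in a fit that called 2.57% of genes. With each cohort fitted alone, without surrogate variables, the log2 fold change was 0.16 in cohort 1 and 0.22 in cohort 2. Adjusted over the size contrast by itself, the FDR-adjusted p was 0.343 in edgeR, also past the threshold, and the fit called 7.35% of genes. SSH3, the slingshot phosphatase that is not a member and was named after its values were seen, had 51.0 ± 10.9 CPM in AGA and 47.4 ± 6.24 CPM in SGA piglets (SD, n = 12), a difference of -0.07 on the log2 scale (FDR-adjusted p = 0.942 in edgeR).

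The LIM kinases, which oppose the phosphatases, were not called between SGA and AGA piglets. LIMK1 (chromosome 3, 10936786 to 10961582) had 139 to 221 CPM in AGA CON (median 184), 167 to 314 CPM in SGA CON (median 186), 148 to 201 CPM in AGA HF (median 174) and 156 to 203 CPM in SGA HF piglets (median 177). The medians were close and the groups overlapped throughout. Its log2 fold change was -0.01 (95% interval -0.11 to 0.08, FDR-adjusted p = 0.975), and the SGA littermate was higher in 7 of 12 litters. Without surrogate variables it was 0.12, so the direction rests on that adjustment. LIMK2 (chromosome 14, 51094927 to 51150601) had 50.1 to 75.2 CPM in AGA CON (median 55.9), 40.1 to 74.6 CPM in SGA CON (median 56.2), 52.2 to 69.1 CPM in AGA HF (median 61.2) and 46.1 to 59.9 CPM in SGA HF piglets (median 54.8). Its log2 fold change was -0.11 (95% interval -0.23 to 0.01, FDR-adjusted p = 0.769), and the SGA littermate was lower in 8 of 12 litters. On the HF diet alone it was -0.22 (95% interval -0.39 to -0.05, unadjusted p = 0.0123, FDR-adjusted p = 0.608 in edgeR). There 0.288% of genes were called and 1310 of 16326 had an unadjusted p under 0.05. On the CON diet, where 0.129% were called, the log2 fold change of LIMK2 was 0.00 (-0.16 to 0.17).

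Cofilin itself was not called. CFL1 (chromosome 2, 5575587 to 5579048) had 2665 to 3460 CPM in AGA CON (median 3329), 2937 to 5026 CPM in SGA CON (median 3251), 2627 to 3666 CPM in AGA HF (median 3144) and 2954 to 3856 CPM in SGA HF piglets (median 3190). The SGA and AGA ranges overlapped, and 3 SGA piglets (SGA HF replicate 5 at 3856, SGA CON replicate 4 at 3920 and SGA CON replicate 6 at 5026 CPM) lay above the highest AGA piglet. The log2 fold change between sizes was 0.06 (95% interval -0.01 to 0.13, FDR-adjusted p = 0.796 in edgeR). The SGA littermate was higher in CFL1 in 7 of 12 litters, with differences from -0.31 to 0.63 on the log2 scale (SD 0.25). CFL2 (chromosome 7, 69919806 to 69923077) had 36.4 to 48.8 CPM in AGA CON (median 37.8) and 32.2 to 37.1 CPM in SGA CON piglets (median 34.4), and 31.5 to 50.0 CPM in AGA HF (median 39.6) and 28.1 to 42.6 CPM in SGA HF piglets (median 38.7). On the CON diet the SGA piglet was the lower of the pair in all 6 litters, with differences from -0.39 to -0.08 on the log2 scale, and on the HF diet in 4 of 6. The share of all genes lower in as many litters was not computed. The fit with surrogate variables gave a log2 fold change of -0.03 (95% interval -0.17 to 0.10, FDR-adjusted p = 0.956) and the litter block gave -0.14 (standard error 0.062, FDR-adjusted p = 0.594), so CFL2 was not called in either. The CFL1 to CFL2 ratio per length was 204 ± 37.0 in SGA CON and 159 ± 20.4 in AGA CON piglets (SD, n = 6), with ranges that overlapped (176 to 266 and 131 to 184), and 171 ± 22.7 and 159 ± 31.4 on the HF diet.

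The profilins were also not called between SGA and AGA piglets. PFN1 (chromosome 12, 54031353 to 54034283) had 339 to 419 CPM in AGA CON (median 399), 354 to 624 CPM in SGA CON (median 384), 305 to 452 CPM in AGA HF (median 375) and 336 to 420 CPM in SGA HF piglets (median 378). The SGA littermate was higher in 6 litters and lower in 6, and the log2 fold change was 0.04 (95% interval -0.05 to 0.12, FDR-adjusted p = 0.911). PFN2 (chromosome 13, 98231651 to 98237664) had 75.5 to 103 CPM in AGA CON (median 90.6), 73.9 to 119 CPM in SGA CON (median 104.5), 66.3 to 125 CPM in AGA HF (median 88.9) and 79.3 to 119 CPM in SGA HF piglets (median 94.3). Its littermate differences were widely spread, from -0.66 to 0.83 on the log2 scale (SD 0.44, n = 12), and the log2 fold change was 0.07 (95% interval -0.10 to 0.23, FDR-adjusted p = 0.924). Without litter 5, which held the lowest of these differences, PFN2 was called (0.23, FDR-adjusted p = 0.373), in a fit that called 7.75% of genes.

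**Figure D3:**
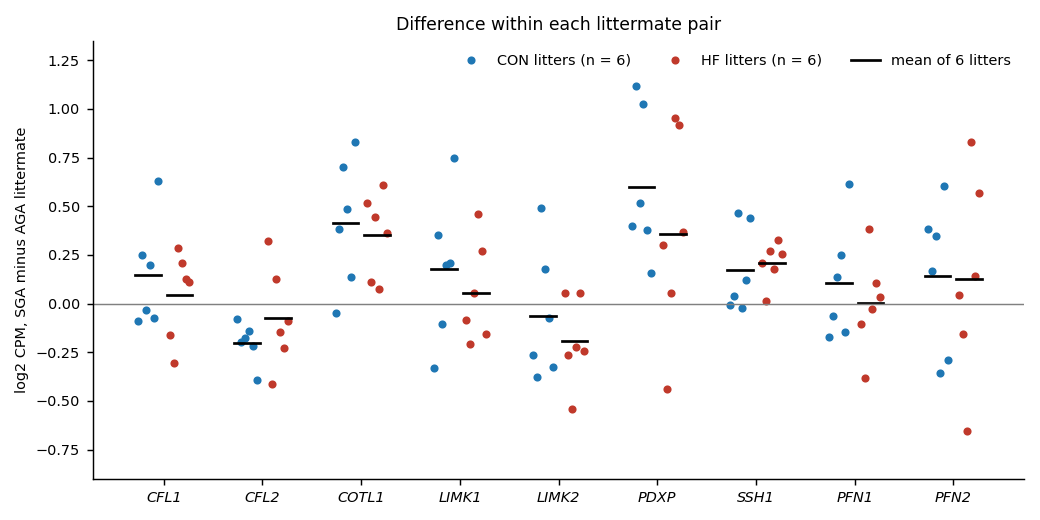
Difference in log2 CPM between the SGA and the AGA piglet of each litter, by member and diet, with black bars for the mean of 6 litters. Of 12 litters the SGA piglet was higher in 11 for PDXP and COTL1 and in 10 for SSH1, and lower in 10 for CFL2.

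Between diets, none of the 9 members was called in edgeR's quasi-likelihood test, where 0.159% of genes were, and none was with DESeq2 or limma voom. An unadjusted p under 0.05 was found for 1 of the 9 and for 7.1% of all genes. COTL1 was the member with the smallest p, with 62.0 ± 14.2 CPM on the CON and 53.8 ± 10.1 CPM on the HF diet (SD, n = 12). Its range was 48.6 to 94.4 CPM on CON and 40.0 to 77.7 CPM on HF, so the diets overlapped. The log2 fold change between HF and CON was -0.15 (95% interval -0.29 to -0.01, unadjusted p = 0.0381, FDR-adjusted p = 0.713). When the counts of each litter were summed, so that the 12 litters were the units, it was -0.19 (unadjusted p = 0.0297, FDR-adjusted p = 0.999), in a fit that called 0.00613% of genes and no member. Without litter 5, COTL1 was called at -0.16 (FDR-adjusted p = 0.391), in a fit that called 4.66% of genes. The other 8 members had log2 fold changes between -0.12 for SSH1 and 0.09 for LIMK2, and their 95% intervals all include 0. Within AGA piglets, where 0.0674% of genes were called, none was. An unadjusted p under 0.05 was found for 3 of the 9 members and 6.09% of all genes, and SSH1 (-0.19, unadjusted p = 0.047), PFN1 (-0.12, unadjusted p = 0.0401) and LIMK2 (0.20, unadjusted p = 0.0242) were these 3, with FDR-adjusted p values of 0.665 to 0.726. In SGA piglets, where 0.0919% of genes were called and 5.16% had an unadjusted p under 0.05, no member was or had, and the log2 fold changes lay between -0.12 (COTL1) and 0.06 (CFL2). No member had diets wholly apart, which 0.135% of genes did in AGA and 0.165% in SGA piglets.

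The interaction contrast subtracts the size difference on CON from that on HF, and 0.049% of genes were called in it by edgeR. No member was among them, nor with DESeq2 or limma voom, and no member had an unadjusted p under 0.05, beside 4.01% of all genes. PDXP had a log2 fold change between SGA and AGA of 0.57 on CON and 0.27 on HF, and the interaction was -0.31 (95% interval -0.66 to 0.05, unadjusted p = 0.0891, FDR-adjusted p = 0.783). In fits of each cohort alone the interaction of PDXP was -0.69 in cohort 1 and 0.23 in cohort 2, so the direction differed between cohorts. Those fits held no surrogate variables, unlike the fit to all piglets, so cohort values and values in all piglets differ in their terms too. COTL1 differed by 0.37 on CON and 0.43 on HF, and its interaction was 0.06 (95% interval -0.20 to 0.32, FDR-adjusted p = 0.959 in edgeR). In the fits of each cohort alone, without surrogate variables, it was -0.02 in cohort 1 and -0.15 in cohort 2. For LIMK2 the interaction was -0.22 (95% interval -0.45 to 0.01, unadjusted p = 0.0549 in edgeR). For PFN2 it was -0.24 in all piglets, and -0.57 in cohort 1 and 0.53 in cohort 2, each fitted alone without surrogate variables.

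**Figure D4:**
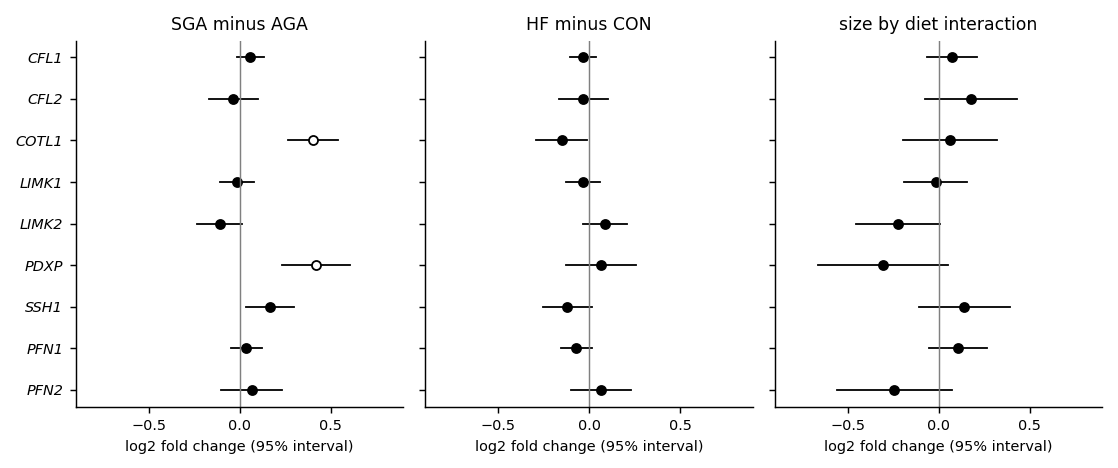
Log2 fold change with its 95% interval for 9 members in the size, diet and interaction contrasts of the fit with sex and 5 surrogate variables. Open circles mark PDXP and COTL1 in the size contrast, which they were chosen by; the interval of SSH1 by size (0.03 to 0.30) and of COTL1 by diet (-0.29 to -0.01) also leave out 0 before adjustment.

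Cohort and sex differ only between litters and were tested on the counts summed per litter, with the FDR for each alone. Between cohorts 8.97% of genes were called, and 1 of the 9 members. LIMK2 had 60.7 ± 9.16 CPM in the first and 53.4 ± 6.20 CPM in the second cohort (SD, n = 12), and differed by -0.18 on the log2 scale (SE 0.079, FDR-adjusted p = 0.390 in edgeR). The call lay at the threshold and was lost on leaving out any one of litters 1, 3, 4, 6, 8, 9, 11 and 12, and with median-ratio scaling. LIMK1 was at 172 ± 20.8 CPM in the first and 198 ± 41.5 CPM in the second cohort (log2 fold change 0.18, FDR-adjusted p = 0.438 in edgeR). PDXP was at 22.0 ± 6.71 CPM in the first and 26.0 ± 6.73 CPM in the second cohort (log2 fold change 0.30, FDR-adjusted p = 0.452). Some alternatives called other members between cohorts or sexes, among them LIMK1 and PDXP without a filter or without litter 2, 7 or 10. Between male and female litters 0.19% of genes were called and 3.65% had an unadjusted p under 0.05, and none of the members was or had, with log2 fold changes from -0.13 (PFN1) to 0.14 (PFN2).

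Within groups the members did not vary independently of each other. Pearson's r was computed on log2 CPM as deviations from the 4 group means, over 24 libraries, and serves as a description, since the libraries share litters, depth and tissue composition. CFL1 varied with LIMK1 (r = 0.82) and with PFN1 (r = 0.81) from piglet to piglet, and COTL1 with PFN1 (r = 0.70). In each cohort alone r was 0.83 and 0.72 for CFL1 with LIMK1 and 0.69 and 0.87 for CFL1 with PFN1, and it was 0.38 and 0.86 for COTL1 with PFN1. Of the paralog pairs, PFN1 with PFN2 had r of -0.60 (-0.49 in the first and -0.61 in the second cohort). LIMK1 with LIMK2 had -0.58 (-0.33 and -0.63), while CFL1 with CFL2 had 0.29 (-0.05 and 0.19). SGA CON replicate 6 was far above its group for PFN1 and LIMK1 and the lowest of it for PFN2 and LIMK2. The r without this library was not computed. PDXP and COTL1, the pair that was higher in SGA piglets, had an r of only 0.28 with each other, 0.29 in the first and -0.08 in the second cohort. SSH1 had r between -0.15 and 0.41 with the others.

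Summed levels of cell type markers moved with some of these genes in the same way, and their part in the differences by size was not tested. The neuron markers had r of 0.67 with PDXP and CFL1 and 0.63 with LIMK1, and -0.57 with LIMK2. In part these r rest on 2 extreme libraries. AGA CON replicate 2 had the lowest neuron markers (2735 CPM), PDXP (9.32 CPM) and LIMK1 (139 CPM) and the highest LIMK2 (75.2 CPM). SGA CON replicate 6 had the highest neuron markers (7090 CPM), CFL1 (5026 CPM) and LIMK1 (314 CPM) and the lowest LIMK2 (40.1 CPM). Values of r without these libraries were not computed. LIMK2 had its highest r, 0.71, with the endothelial markers, which were also highest in AGA CON replicate 2 (318 CPM). CFL2 followed the oligodendrocyte markers (r = 0.81), all 5 of which had fitted log2 fold changes below 0 between SGA and AGA piglets (median -0.15, none called). COTL1 had its highest r with microglial (0.52) and oligodendrocyte progenitor markers (0.51). For SSH1 all r with the 11 lists lay between -0.34 and 0.31. The neuron markers SLC17A7 and, for hippocampal neurons, NEUROD2 had log2 fold changes of 0.14 and 0.16 by size, with an FDR-adjusted p of 0.506 for each (edgeR), and the medians of these lists were 0.03 and 0.01. Medians were -0.00 for astrocyte, -0.03 for microglial, 0.05 for oligodendrocyte progenitor, 0.09 for endothelial and 0.10 for mural markers. They were 0.17 for choroid plexus, -0.09 for meningeal and 0.36 for blood markers, beside -0.00 for all genes tested. The blood median covers 2 genes, HBB (0.07) and S100A8 (0.64, at 0.67 CPM in AGA and 1.03 CPM in SGA piglets). The choroid plexus median covers 3 genes, from -0.28 to 0.39. None of the 47 markers tested was called by size.

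**Figure D5:**
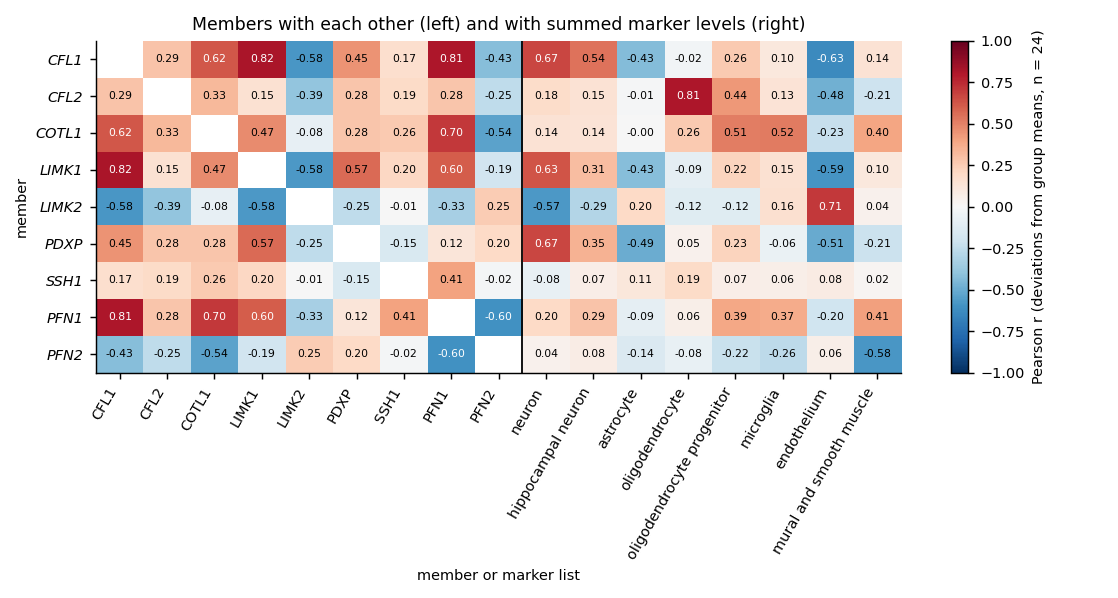
Pearson r between members (left of the line) and between members and the summed level of 8 marker lists (right of it), on deviations from group means over 24 libraries. CFL1, LIMK1 and PFN1 form a block of positive values, PFN2 and LIMK2 run against them, and CFL2 stands out with the oligodendrocyte markers at 0.81.

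Among all genes with a symbol, those whose deviations were most like PDXP were ARF1 (r = 0.87), which encodes a small GTPase of vesicle traffic, TMEM63B (r = 0.86), which encodes a mechanically gated ion channel, and SEZ6L2 (r = 0.85), which encodes a neuronal membrane protein. Their log2 fold changes by size were -0.01, 0.09 and 0.04, well under that of PDXP. For COTL1 they were MRPL20 (r = 0.82), a mitochondrial ribosomal protein gene, the phospholipase gene PLA2G6 (r = 0.79) and ZNF358 (r = 0.79), with log2 fold changes of 0.03, 0.05 and 0.05. Of these 6 genes none was called by size. Genes within 100 kb of PDXP on chromosome 5 included none called in the same direction. The nearest, gene 102157987 on the plus strand, lies 127 bases away and differed by 0.11 (FDR-adjusted p = 0.885). SH3BP1, NOL12, gene 102161581, GGA1 and CDC42EP1 had log2 fold changes from -0.13 to 0.28, with FDR-adjusted p values of 0.825 or more. LGALS1, which encodes galectin-1, had -0.35 and was called in the opposite direction (FDR-adjusted p = 0.395). LGALS2 and 3 genes without a symbol nearby failed the filter.

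Other genes of actin turnover, together with the vitamin B6 and leukotriene genes tied to PDXP and COTL1, were described with 7 lists of 96 genes, 85 of which were tested. None was called in the size, diet or interaction contrast (smallest FDR-adjusted p 0.601, 0.581 and 0.666 in edgeR's quasi-likelihood test). By size 12 of 85 had an unadjusted p under 0.05, which is 14.1% beside 10.6% of all genes. The median log2 fold change over the 85 was 0.01, beside -0.00 for all genes. By diet 6 had an unadjusted p under 0.05, which is 7.06% beside 7.1% of all genes, and in the interaction 1 had (1.18% beside 4.01%).

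Among the other cofilin family members and regulators, 12 of 13 genes were tested, 2 had an unadjusted p under 0.05 and the median log2 fold change by size was -0.03. TESK1, a kinase that phosphorylates cofilin as the LIM kinases do, had 0.09. WDR1, which helps cofilin to disassemble filaments, had 0.10, and DSTN, the close relative of cofilin, had -0.06 (FDR-adjusted p = 0.684, 0.724 and 0.840 for TESK1, WDR1 and DSTN).

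Of the actin, profilin and thymosin genes, 5 of 7 were tested and none had an unadjusted p under 0.05 (median -0.02). ACTG1, 1 of the cytoplasmic actin genes, had 2758 ± 180 CPM in SGA and 2805 ± 189.5 CPM in AGA piglets (SD, n = 12), and ACTB, named after its values were seen, had 2215 ± 228.6 and 2151 ± 169 CPM, so each differed by less than its spread. TMSB10 and TMSB15A, which encode thymosins that hold actin monomers, had -0.13 and -0.05. Of the capping, severing and stabilising genes, 19 of 21 were tested and 4 had an unadjusted p under 0.05 (median 0.03), with DBN1 (drebrin, a spine protein), TPM3 and CAPZB at 0.09 each. Of the nucleation and elongation genes, 25 of 30 were tested and 3 had an unadjusted p under 0.05 (median 0.01). WASF1 and WASF3, of the complex that activates Arp2/3, had 0.18 and 0.23, and the Arp2/3 subunit gene ARPC2 had 0.10 (FDR-adjusted p = 0.608, 0.706 and 0.715), with the SGA littermate higher in 10, 9 and 10 of 12 litters.

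The genes that share the other known roles of PDXP and COTL1 had no unadjusted p under 0.05. Of the vitamin B6 enzymes, ALPL and PDXK had log2 fold changes by size of 0.13 and 0.04. Of the leukotriene genes, LTC4S, ALOX5 and LTA4H had -0.20, 0.22 and 0.03, with a median over 4 genes of 0.02. ALOX5, whose protein 5-lipoxygenase binds COTL1, was low, at 3.28 ± 1.43 CPM in AGA and 3.41 ± 1.62 CPM in SGA piglets (SD, n = 12).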

How the data were processed

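Hippocampal polyA RNA of 24 piglets was sequenced from stranded libraries. The study reported a mean RNA quality number in the middle of its scale, which it put down to pre-spliced RNA. The authors trimmed reads with Trimmomatic 0.33 and aligned them to Sscrofa10.2 with STAR 2.5.2a. They counted reads on exons with featureCounts (Subread 1.5.0) in its reverse-stranded mode. They deposited raw whole-number counts. An entry with no gene identifier (0.613 to 1.62% of a library) was left out. Gene names came from a RefSeq table of Sscrofa11.1 matched on gene identifier (23036 of 38882 genes, 15993 with a symbol), and coordinates from the deposited files.

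Counts were scaled by TMM, and the 16326 genes that reached 1 CPM in 3 or more libraries entered edgeR 4.0.16 (R 4.3.3), on the 4 groups, sex and 5 surrogate variables (sva 3.50.0, log2 CPM with a prior count of 2) as terms, the terms that the study fitted with limma voom. The number of genes kept differed from the study's. The Benjamini-Hochberg FDR covered 7 contrasts together, with the threshold of 0.4 that the study names for its heat map. Cohort and sex were tested on counts summed per litter. The fit was tested on simulated data. Same-numbered piglets of a diet are littermates by the labels. Their deviations from the group means had a mean correlation of 0.154 (0.0144 to 0.329), over 0.1 in 9 of 12 pairs, and litter as a block was an alternative. Separate sows are not stated, and p-values treat piglets (litters, where summed) as independent. The members and gene lists were chosen with earlier results of these data known. Named were all members, up to 3 genes per pathway list by unadjusted p, the 3 genes most like PDXP and COTL1, and genes within 100 kb. Results for 1 of the pathway lists and 1 other gene are not reported here. Marker genes were named after their values were seen. DESeq2 1.42.0 and limma 3.58.1 served as alternatives.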

Additional observations from a re-analysis of the deposited data

Results flagged for a closer look

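Among 36 member and group combinations, 3 held a piglet far from the other 5 by Dixon's criterion on the gap to the nearest piglet, which chance meets in about 1 in 20 groups. COTL1 in SGA HF replicate 5 was at 77.7 CPM, and the other SGA HF piglets were between 54.1 and 60.2 CPM. LIMK1 in SGA CON replicate 6 was at 314 CPM, beside 167 to 219 CPM in the other 5. PFN1 in SGA CON replicate 6 was at 624 CPM, beside 354 to 443 CPM. The last 2 values come from 1 library, which was also the highest of its group for CFL1, CFL2, COTL1 and SSH1 and the lowest for LIMK2 and PFN2. It had the highest summed neuron markers (7090 CPM) and the lowest TMM factor (0.899) of all libraries. Without its litter, litter 12, the log2 fold changes by size were 0.02 for LIMK1 and 0.05 for PFN1, and 0.18 for SSH1.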

How the results depend on the processing

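The alternatives for the cohort and sex comparison, and the fit without litters 4 and 7, were chosen after seeing the data. PDXP and COTL1, chosen for their size difference, make up the counts by size in the reported fits, which are a description. The number of members called by size was 2. It was 3 with the FDR over each contrast alone (PDXP, COTL1 and SSH1), and 1 without surrogate variables or with a cohort term in their place. It was 0 in cohort 1 or cohort 2 alone, and 1 to 3 when single litters were left out (1 without litter 2 or 9, 3 without litter 5). On the CON diet it was 2, and 1 with the FDR over each contrast alone, a cohort term, limma voom or a filter of 6 libraries, 0 without surrogate variables, in either cohort alone or without litters 4 and 7 (2 with either alone left out), and 0 to 2 with single litters left out. On the HF diet it was 1, and 0 without surrogate variables, with a cohort term or in either cohort, and 0 to 2 with single litters left out. By diet it was 0 in all piglets and in AGA piglets, and 0 to 1 with single litters left out. Between cohorts and sexes it was 1, and 0 with median-ratio size factors, a filter of 6 libraries or litters 4 and 7 out, 2 without a filter, and 0 to 4 with single litters left out. The replicate block called 3 members by size (SSH1 at 0.19, FDR-adjusted p = 0.376). The block changed no other call among the members. Of all genes tested, the share called by size was 0.478% in the reported fit, 7.35% with the FDR over that contrast alone, 2.57% under the block, 1.29% with DESeq2, 0.276% with the filter of 6 libraries, 0.0796% without surrogate variables, and 0.086 to 7.75% with single litters left out (7.75% without litter 5). By diet it was 0.159% as reported and 0 to 0.539% in the alternatives, and in the interaction 0.049% and 0 to 0.276%, with up to 4.66% and 2.05% when a litter was left out. Causes were not tested. With 12 piglets in a cohort no gene was called by size, so the cohorts alone show sizes of difference, not calls. The fits of a cohort alone held no surrogate variables. SSH2 had 0 to 2 counts on a short gene model, and whether that model holds its whole transcript was not tested.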
